A study of Mus musculus with 10 samples.

Results

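The 7 genes described here encode proteins that move chloride, bicarbonate and sodium across the intestinal epithelium, or that serve those movements: Cftr, Kcne3, Slc26a3, Slc26a6, Slc9a3, Slc4a4 and Car4. They were chosen by name, and each was found among the 35006 gene names of the count files of 10 RNA-seq libraries. All 7 passed the filter on low counts, which kept 13706 genes. The libraries came from 5 populations of live EpCAM+ cells sorted from small-intestinal crypts of EF1a-OSCAR mice, strain label C57BL6/J, with 2 biological replicates per population and 10000 sorted cells per library. The age and sex of the mice, and whether animals were pooled, are not given in the sources used here.

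Every sorted cell carried the same transgene. The OSCAR cassette was knocked in at Rosa26 behind the EF1a promoter, and its stop cassette had been removed in the germ line by Vasa-Cre, so that all tissues carry the active reporter. OSCAR is a ratio of green VeN90 to red mCherry that reads CDK9 kinase activity. A high ratio marks cells with little serine 2 phosphorylation of RNA polymerase II. The labels give P1 as OSCARlow EF1alow, P2 as OSCARhigh EF1alow, P3 as OSCARlow EF1ahigh, P4 as OSCARmed EF1alow and P5 as OSCARmed EF1ahigh, where EF1a stands for the overall brightness of the reporter. No library without the transgene was analysed here.

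As background, crypt cells secrete chloride through the apical channel Cftr, and potassium channels of the basolateral side keep up the driving force. Apical exchangers bring sodium in against protons and chloride in against bicarbonate, which together absorb salt. Bicarbonate for these steps enters through basolateral sodium bicarbonate cotransport or is made by carbonic anhydrases. In the intestine secretion is classically assigned to the crypt, and absorption to the differentiated enterocytes of the villus.

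The libraries held 3857612 to 6485823 counts on genes. The mitochondrial share of counts was 59.2% and 36.1% for labelled P3, and 1.04% to 5.19% for the other 8 libraries. Summed Paneth cell markers reached 557180 and 394616 CPM (the usual per-library scaling of counts, with factors from the trimmed mean of M values, TMM) in the libraries labelled P2 and 496 to 62221 in the others, and the goblet, enteroendocrine and tuft sums likewise stood highest there. All 5 Paneth markers had counts in every library. The study's text places secretory markers in its P3 population, so the labels and the text are in conflict. No library was renamed, and these libraries are called labelled P2 and labelled P3, since each direction drawn for OSCAR or EF1a from these 4 libraries rests on the labels. In bulk libraries, fewer cells of a type and less RNA per cell cannot be told apart.

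The start of transcription is shown for a pair of members that moved together across the libraries but differ in composition. The 250 bases before the start of Slc26a3 (GRCm38.p6, chr12:31437969-31438218, plus strand) and of Cftr (chr6:18170437-18170686, plus strand) were read from RefSeq. Capitals mark the letters GTTAAT, the left side of the HNF1 motif (GTTAAT, any base, ATTAAC), and TATAAA, on either strand.
Slc26a3: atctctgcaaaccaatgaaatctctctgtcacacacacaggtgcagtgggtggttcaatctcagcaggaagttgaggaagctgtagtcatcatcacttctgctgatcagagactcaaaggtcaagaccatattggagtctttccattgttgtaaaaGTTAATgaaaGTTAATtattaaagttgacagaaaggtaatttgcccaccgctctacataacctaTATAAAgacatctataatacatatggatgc
Cftr: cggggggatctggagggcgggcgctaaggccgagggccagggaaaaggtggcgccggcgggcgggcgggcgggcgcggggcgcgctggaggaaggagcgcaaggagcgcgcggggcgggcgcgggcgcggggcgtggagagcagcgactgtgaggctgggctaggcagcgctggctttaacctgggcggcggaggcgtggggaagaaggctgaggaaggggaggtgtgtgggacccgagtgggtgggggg

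The Slc26a3 window had a GC content of 38.8% and the Cftr window of 76.4%, against a median of 52.4% over all 32851 windows of this length. The other members lay between 46.8% for a first Kcne3 window and 82.0% for a first Slc4a4 window, and in all 9 windows matched the 7 members. Of the members only Slc26a3 held GTTAAT, beginning 94 and 84 bases before the start, and only Slc26a3 held TATAAA, beginning 30 bases before it. On either strand GTTAAT occurs in 6.43% of all windows and TATAAA in 12.4%, and these letters were chosen after the windows had been read. The letters CAAAGTNCA for HNF4 (1.19% of all windows), CAATAAA for CDX2 (4.20%), AGATAA for GATA factors (9.99%) and the full HNF1 motif (0.00913%) were in no member window.

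Cftr, the cAMP-gated chloride and bicarbonate channel mutated in cystic fibrosis, is annotated at chr6:18120687-18272768 of NCBIM37, the assembly also called mm9. Its TMM-scaled level in replicates 1 and 2 was 65.4 and 61.2 CPM in P1 and 27.1 and 15.4 CPM in labelled P2, against 451.8 and 248.2 CPM in labelled P3, 305.3 and 279.0 CPM in P4, and 272.1 and 286.7 CPM in P5. The 4 libraries of P1 and labelled P2 lay below the other 6 with no overlap, and labelled P2 lay below P1. Cftr shares 129 exon bases with the antisense gene Gm15592, and the counting took no account of strand.

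Kcne3 (chr7:107327207-107333374) encodes the small subunit that holds the potassium channel Kcnq1 open in intestinal crypts. Its level was 23.7 and 30.8 CPM in P1 and 53.0 and 27.2 CPM in labelled P2, against 94.0 and 149.4 CPM in labelled P3, 108.6 and 137.6 CPM in P4, and 111.2 and 141.9 CPM in P5. It was the only member whose labelled P2 libraries overlapped those of P1. The 6 libraries of the other populations lay above all 4.

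Slc26a3 (chr12:32075736-32158782), also called DRA, is the apical chloride bicarbonate exchanger lost in congenital chloride diarrhoea. Its level was 62.3 and 42.2 CPM in P1 and 2.7 and 6.0 CPM in labelled P2, against 314.8 and 123.2 CPM in labelled P3, 163.8 and 86.3 CPM in P4, and 165.7 and 96.8 CPM in P5. The 2 libraries labelled P2 rested on 9 and 27 counts, and the 3 levels of labelled P2, P1 and the rest did not overlap.

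Slc26a6 (chr9:108756368-108764472), also called PAT1, is an apical exchanger of chloride, bicarbonate and oxalate. Its level was 103.5 and 78.0 CPM in P1 and 11.9 and 15.6 CPM in labelled P2, against 296.8 and 107.5 CPM in labelled P3, 129.2 and 64.5 CPM in P4, and 179.9 and 91.3 CPM in P5. It was the only member whose P1 libraries lay within the range of P4 and P5.

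Slc9a3 (chr13:74258963-74303512), or NHE3, is the apical sodium proton exchanger that carries most electroneutral sodium absorption. Its level was 25.4 and 19.1 CPM in P1 and 3.7 and 1.8 CPM in labelled P2, against 115.2 and 34.2 CPM in labelled P3, 45.6 and 33.1 CPM in P4, and 50.0 and 44.6 CPM in P5. The labelled P2 libraries rested on 12 and 8 counts.

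Slc4a4 (chr5:89315843-89668678), or NBCe1, is the basolateral sodium bicarbonate cotransporter. Its level was 83.7 and 69.1 CPM in P1 and 13.1 and 11.2 CPM in labelled P2, against 204.4 and 124.8 CPM in labelled P3, 130.5 and 101.1 CPM in P4, and 127.3 and 124.6 CPM in P5. Replicates were close in labelled P2 and P5, and P1 lay below labelled P3, P4 and P5 by a narrow margin.

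Car4 (chr11:84771288-84779546) encodes a carbonic anhydrase anchored to the outer face of the plasma membrane, where it interconverts carbon dioxide and bicarbonate. P1 held 49.3 and 39.0 CPM, labelled P2 12.2 and 4.7, labelled P3 508.6 and 178.3, P4 221.3 and 117.0, and P5 201.3 and 109.9. The labelled P3 replicates stood 2.85-fold apart, and the means of the populations had the order seen for Cftr.

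**Figure D1:**
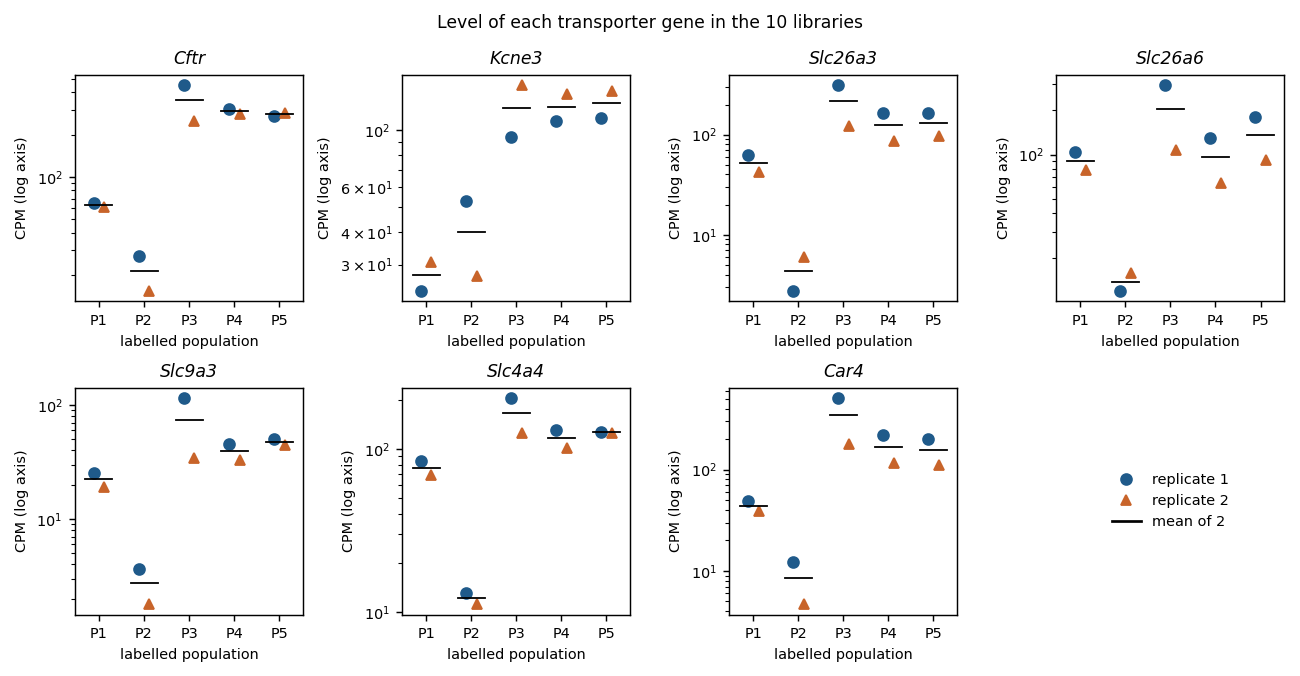
Level of each of the 7 genes in CPM (TMM-scaled, log axis) in the 5 labelled populations; circles are replicate 1, triangles replicate 2 and black lines the mean of the 2. In 6 of the 7 panels both libraries labelled P2 lie below the other 8, and in the Kcne3 panel they overlap P1.

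Per length, in RPKM, which divides CPM by the gene's exon length in kilobases, the order in P4 was Kcne3 at 93.7 ± 15.6 (SD, n = 2), Car4 at 86.0 ± 37.5, Slc26a6 at 46.6 ± 22.0, Cftr at 37.6 ± 2.39, Slc26a3 at 19.6 ± 8.60, Slc9a3 at 15.8 ± 3.53 and Slc4a4 at 10.7 ± 1.92. Of these neighbours, Cftr with Slc26a3 and Slc9a3 with Slc4a4 did not overlap between replicates, and the other 4 pairs did. In P1, Slc26a6 led in RPKM at 43.6 ± 8.68 and Cftr stood at 8.15 ± 0.38, next to Slc26a3 at 8.20 ± 2.24. In labelled P2, Kcne3 led at 30.5 ± 13.9 RPKM and no other member exceeded the 6.61 ± 1.27 of Slc26a6. The annotated Slc9a3 model has 2490 bases, a multiple of 3, so its RPKM may rest on coding length only. The lengths merge all annotated exons of a gene, with 7765 bases for Cftr, 6369 for Slc26a3 and 10815 for Slc4a4. The order between genes therefore also depends on the annotation, which the spread between replicates does not measure.

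The first question was whether the members differed among the populations at all. All 7 did, against 36.3% of the genes tested (edgeR quasi-likelihood F test, Benjamini-Hochberg adjusted p over 13706 genes below 0.01, the threshold throughout). The largest adjusted p among them was 0.00516, for Slc26a6. Without P1 replicate 1 or either library labelled P2, fewer members were called, and fewer of all genes were too. Without both libraries labelled P3, all 7 were called, beside 48.1% of all genes.

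By their labels, P4 and labelled P2 are both EF1alow and differ in the OSCAR ratio. All 7 members were lower in labelled P2, where 14.3% of all genes were called and 6.31% were lower. Slc26a3 fell by 4.79 on the log2 scale (SE 0.63, 27.6-fold, adjusted p = 0.0011), Car4 by 4.36 (SE 0.67, 20.5-fold, adjusted p = 0.00201) and Slc9a3 by 3.89 (SE 0.62, 14.9-fold, adjusted p = 0.00232). Cftr fell by 3.79 (SE 0.37, 13.8-fold, adjusted p = 0.000472) and Slc4a4 by 3.26 (SE 0.29, 9.56-fold, adjusted p = 0.000361). Slc26a6 fell by 2.81 (SE 0.57) and Kcne3 by 1.62 (SE 0.35, 3.08-fold, adjusted p = 0.00885), the smallest change of the 7.

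All 7 also fell in labelled P2 against P5 (15.9% of all genes called, 7.14% lower) and against labelled P3 (21.0% called, 10.6% lower). Against P5 the log2 differences ran from -1.66 for Kcne3 to -4.86 for Slc26a3, and against labelled P3 from -1.62 for Kcne3 to -5.59 for Slc26a3. These 3 comparisons share the libraries labelled P2. The number of members called against P4 was 3 without labelled P2 replicate 2 (4.09% of all genes called), 4 without its replicate 1 (4.3%) and 3 without P4 replicate 1 (2.72%). Against P5 it was 3 without labelled P2 replicate 2 (5.57%) and 4 without its replicate 1 (5.37%). Over all left-out libraries the difference from P4 stayed between -4.27 and -3.45 for Cftr and between -5.53 and -4.28 for Slc26a3. Kcne3 lost the call against labelled P3, P4 and P5 with DESeq2 size factors in place of TMM, at adjusted p-values of 0.0114 to 0.0133. With library totals alone it also lost the call against labelled P3 (adjusted p = 0.0241, beside 12.3% of all genes called).

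By their labels, P1 and labelled P2 share low overall reporter brightness and differ in the OSCAR ratio. Of the 7 members 5 were higher in P1, against 29.1% of all genes called and 15.2% called higher. Slc26a3 rose by 3.53 (SE 0.62, 11.5-fold, adjusted p = 0.00187), Slc9a3 by 3.07 (SE 0.62), Slc26a6 by 2.71 (SE 0.57), Slc4a4 by 2.66 (SE 0.29) and Cftr by 1.58 (SE 0.35, adjusted p = 0.00548). Car4 differed by 2.42 (SE 0.64) with an adjusted p of 0.0128, just past the threshold. For Kcne3 the difference was -0.55 (95% interval -1.35 to 0.25, adjusted p = 0.227). The count was 1 without P1 replicate 1 (13.5% of all genes called), and 2 without P1 replicate 2 (14.8%), labelled P2 replicate 1 (10.9%) or labelled P2 replicate 2 (17.1%). Over all left-out libraries the difference stayed between 2.53 and 2.78 for Slc4a4 and between 2.51 and 2.92 for Slc26a6.

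Both libraries labelled P2 lay below the other 8 without overlap for 6 members, all but Kcne3, where 15.0% of all genes showed this order. Labelled P2 also held the highest Paneth and goblet sums and the lowest enterocyte sum of any population mean (2451 and 5847 CPM against 3966 to 46982 in the other 8, so that P4 replicate 2 lay between them). Of the 9 enterocyte markers, Fabp2, Krt20 and Vil1 had higher means in labelled P2 than in P4. The part of this makeup in the members' levels was not tested.

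In P1, Cftr and Kcne3, the members of chloride secretion, were called lower than in P4 and P5. Against P4, where 23.4% of all genes were called and 9.44% were lower, Cftr fell by 2.21 (SE 0.34, 95% interval -2.97 to -1.44, adjusted p = 0.00172) and Kcne3 by 2.18 (SE 0.36, 95% interval -2.98 to -1.37, adjusted p = 0.0021). Against P5 (19.8% called, 8.59% lower), Cftr fell by 2.14 (SE 0.34) and Kcne3 by 2.21 (SE 0.36), and no other member was called. The interval of Slc26a6 against P4, -1.24 to 1.05, did not overlap that of Cftr, and neither did that of Slc4a4, -1.18 to -0.01, while those of Car4, Slc26a3 and Slc9a3 did. The difference between genes was not itself tested.

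The remaining members were below P4 in P1 without passing the threshold. Car4 differed by -1.94 (95% interval -3.24 to -0.64, adjusted p = 0.0245), Slc26a3 by -1.26 (-2.41 to -0.11, adjusted p = 0.0733), Slc9a3 by -0.82 (-1.92 to 0.27) and Slc4a4 by -0.60 (adjusted p = 0.0896). Against labelled P3 (15.6% of all genes called, 8.01% lower) Car4 joined the called members and fell by 2.95 (SE 0.60, adjusted p = 0.00647). There Cftr fell by 2.46 (SE 0.34) and Kcne3 by 2.17 (SE 0.36), while Slc4a4 at -1.10 (adjusted p = 0.0125) and Slc26a3 at -2.06 (adjusted p = 0.0158) lay just past the threshold.

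No member was called in these 3 comparisons without either P1 library. Of all genes, 0.0% were then called against labelled P3 and P5 and 5.78% against P4 without P1 replicate 1, and 2.16%, 3.97% and 8.1% without P1 replicate 2. No member was called against P4 without either P4 library (0.0% of all genes) or against P5 without P5 replicate 1 (2.64%) or 2 (0.0%). Over all left-out libraries the difference of Cftr stayed between -2.27 and -2.15 against P4 and between -2.19 and -2.11 against P5. Against labelled P3 the count was 5 without its replicate 2 (8.7% of all genes), and 0 when only these 2 populations were fitted, where 0.0% of all genes were called. Scaling by library totals gave 5 called members in place of 2 against P4 (15.5% of all genes called) and against P5 (9.73%). It put the median log2 difference of all genes at -0.75 and -0.63 (a move of -0.69 and -0.58). Relative to that median, Cftr stood at -2.15 and Kcne3 at -2.12 against P4. Against labelled P3, Kcne3 lost its call with library totals (adjusted p = 0.0215, beside 8.49% of all genes called).

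Both P1 libraries lay below the 6 of labelled P3, P4 and P5 for 6 members, all but Slc26a6, as did 22.9% of all genes. The 4 libraries of P1 and labelled P2 together lay below those 6 for the same 6 members and for 10.7% of all genes. P1 held the highest summed enterocyte markers, at 46982 and 39624 CPM against 25773 or less elsewhere. Fabp2, Krt20, Vil1, Fabp1, Apoa1 and Apoa4 had their highest mean in P1, whereas Alpi, Anpep and Sis had theirs in labelled P3, and Sis stood at 1232 CPM in P1 against 2152 in P4. It also held the highest lymphocyte sum, at 703 and 205 CPM, against 118 in labelled P3 replicate 1 and 0.614 to 22.5 in the other 7, while the summed epithelial markers lay between 2706 and 5417 CPM everywhere. All 5 lymphocyte markers had counts in P1, whereas 2 and 3 of them were at 0 in labelled P2 and 1 or 2 in each library of P4 and P5. The 5 stroma markers summed to at most 53.3 CPM, with 1 to 4 of them at 0 in each library. Their part in the result was not tested.

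**Figure D2:**
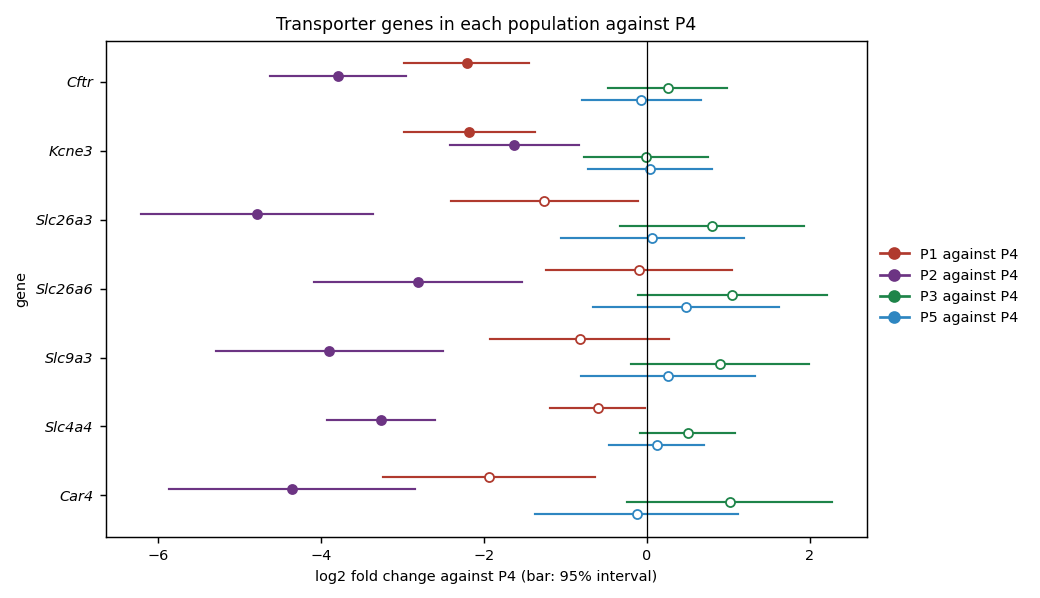
Log2 fold change of each gene in P1, labelled P2, labelled P3 and P5 against P4, with 95% intervals; filled points had an adjusted p below 0.01 and open points did not. All 7 points of labelled P2 are filled, from -1.62 to -4.79, in P1 those of Cftr and Kcne3, and none of labelled P3 or P5.

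Among labelled P3, P4 and P5 no member was called, and no gene at all was (0.0% in each comparison by edgeR). At an unadjusted p below 0.05, 2079 genes differed between labelled P3 and P4, 1587 between labelled P3 and P5, and 350 between P5 and P4. DESeq2 called 114, 37 and 28 genes in these comparisons, none of them a member. Between P5 and P4, which differ in reporter brightness at a medium OSCAR ratio, the intervals reached no further than -1.37 to 1.63 on the log2 scale. They were narrowest for Slc4a4 (-0.46 to 0.70) and Cftr (-0.79 to 0.67).

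Labelled P3 had the highest mean CPM of 6 members, all but Kcne3, with log2 differences from P4 of 0.26 for Cftr to 1.05 for Slc26a6. With library totals alone all 6 differences were negative, as was the median of all genes at -0.98, and relative to that median the 6 stayed positive, from 0.029 for Cftr to 0.74 for Slc26a6. Without labelled P3 replicate 1 the differences of Cftr, Slc26a3 and Slc9a3 were negative. Labelled P3 replicate 1 was the shallowest library and the one with 59.2% mitochondrial counts. The part of that share in the levels was not tested.

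With the gates taken as labelled, 1 interaction test set the effect of EF1a brightness at low OSCAR against that at medium OSCAR. These effects were labelled P3 minus P1 and P5 minus P4. The test was passed by 0 of 7 members and by 0.81% of all genes. The difference was 2.53 for Cftr (SE 0.47, adjusted p = 0.0125), 2.13 for Kcne3 (SE 0.49, adjusted p = 0.0214) and 3.07 for Car4 (SE 0.80, adjusted p = 0.0316). Adjusted p-values of the other 4 ran from 0.0839 to 0.559.

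Several members differed between replicates of a population. In labelled P3, P4 and P5, replicate 1 exceeded replicate 2 for Slc26a3 (1.71- to 2.55-fold), Slc26a6 (1.97- to 2.76-fold) and Car4 (1.83- to 2.85-fold). Kcne3 went the other way in these populations, with ratios of 0.629 to 0.789. Slc9a3 stood 3.37-fold apart in labelled P3, 1.38-fold in P4 and 1.12-fold in P5. In labelled P2, Slc26a3 and Slc26a6 were lower in replicate 1, at ratios of 0.456 and 0.761. Cftr differed little in P4 and P5, at 1.09 and 0.949, and stood 1.82-fold apart in labelled P3. Summed enterocyte markers were also higher in replicate 1 of these populations, at 25773 against 7693 CPM in labelled P3, 10605 against 3966 in P4 and 17903 against 7181 in P5. Summed stem cell markers were lower in replicate 1, at 423 against 2504 CPM, 3916 against 6140 and 3474 against 6022. The part of these markers in the replicate difference was not tested.

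**Figure D3:**
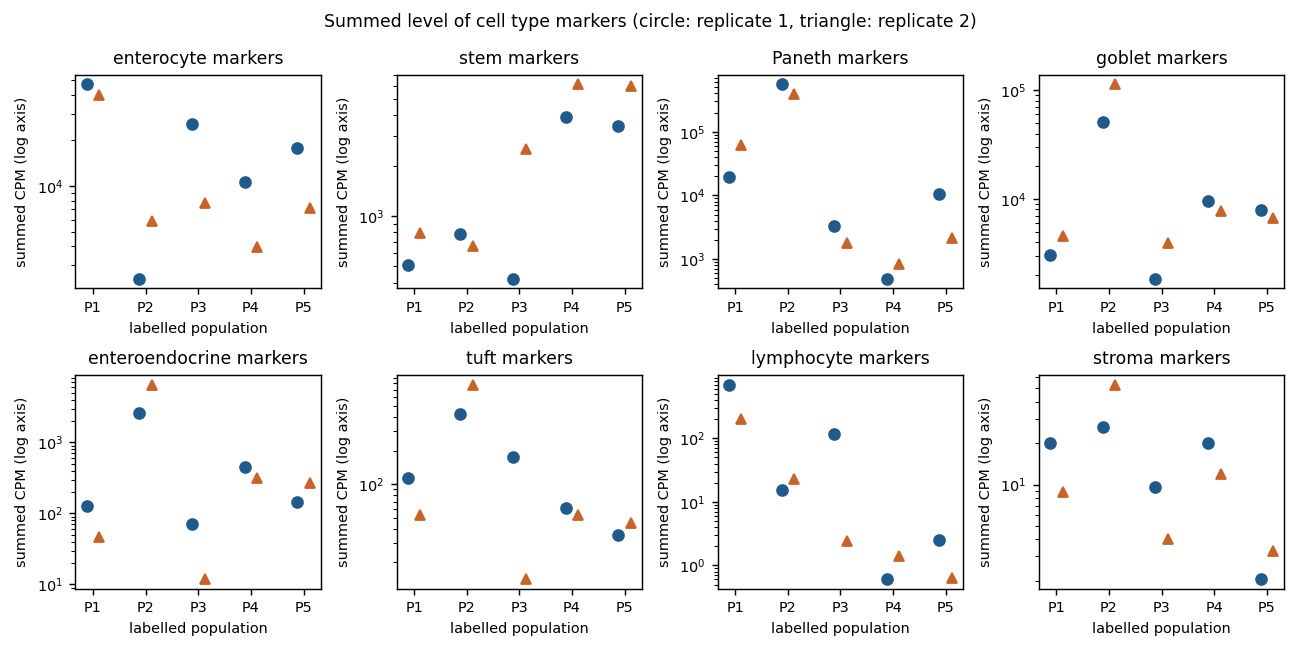
Summed level of 8 lists of cell type markers in CPM (TMM-scaled, log axis) in the 10 libraries; circles are replicate 1 and triangles replicate 2. Paneth and goblet sums are highest in labelled P2, the enterocyte sum is highest in P1, and stem sums are highest in P4 and P5.

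Across the 10 libraries, Pearson correlations of log2 CPM between Kcne3 and the other members were 0.448 to 0.832, and those among the other 6 were 0.851 to 0.988. Slc9a3 and Slc4a4 were the closest pair. The points share population and library, so these values describe the pattern only. The genes most like each member, over all genes tested and the same 10 libraries, were Bri3bp, Agmat and Cct6a for Cftr (r = 0.985 to 0.991) and Csrp2, Pold1 and Syde2 for Kcne3 (0.987 to 0.990). They were Ces1f, Ugt1a7c and Mgst1 for Slc26a3 (0.992 to 0.998), Ces2a, Ano6 and Amn for Slc26a6 (0.990 to 0.995), and Hsd17b13, Mttp and Slc4a4 for Slc9a3 (0.988 to 0.993). For Slc4a4 they were Aadac, Hsd17b13 and Osta (0.990 to 0.993), and for Car4 Bri3bp, Ces2g and Ugt1a1 (0.976 to 0.980). The Ugt1a and Ces genes belong to families with near-identical copies, so their counts are uncertain.

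Of 44 other genes of epithelial ion transport, 34 passed the filter and 19 differed among the populations, against 36.3% of all genes. In P1 against P4, 3 of the 34 were higher and 8 lower (23.4% of all genes were called), with a median log2 difference of -0.55 against -0.06 over all genes. The median of the 7 members was -1.26. Kcnq1, the pore-forming partner of Kcne3, was among the lower genes, at 31.8 and 40.8 CPM in P1 against 222.4 and 236.5 in P4. It fell by 2.66 (SE 0.20, adjusted p = 0.000903). Kcnn4, the calcium-activated basolateral potassium channel, fell by 2.42 (SE 0.34), from 63.5 and 93.9 CPM in P4 to 13.9 and 15.6 in P1. Adcy6, an adenylyl cyclase, fell by 1.56 (SE 0.26), the sodium proton exchanger Slc9a8 by 1.37 (SE 0.18), and the basolateral anion exchanger Slc4a2, which shares exon bases with Fastk, by 0.80 (SE 0.18).

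The carbonic anhydrases did not move together in P1. The membrane-bound Car12 fell by 2.68 (SE 0.53) and Car9, which overlaps the antisense gene Gm12454, by 1.89 (SE 0.29) against P4, whereas the cytosolic Car2 rose by 5.24 (SE 0.92, adjusted p = 0.00268), from 1.60 and 0.694 to 54.9 and 31.6 CPM. Slc9a3r1 and Pdzk1, scaffold proteins that hold apical transporters including Slc9a3 and Cftr, also rose. Slc9a3r1 stood at 2712 and 2610 CPM in P1 and 260.4 and 132.9 in P4, a difference of 3.76 (SE 0.75, adjusted p = 0.00459). Pdzk1 stood at 718.1 and 695.2 CPM against 17.4 and 2.08, a difference of 6.19 (SE 1.40, adjusted p = 0.00767), and shares exon bases with its antisense neighbours Cd160 and Gpr89. In labelled P2, where Cftr was lowest, none of the 3 was called against P4, at 0.50 for Slc9a3r1, 1.95 for Pdzk1 and 2.02 for Car2.

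In labelled P2 against P4, 3 of the 34 were higher and 8 lower (14.3% of all genes were called), with a median of -0.10 against 0.05 over all genes and -3.79 over the members. Kcnq1 fell by 2.80 (SE 0.21) and Kcnn4 by 3.48 (SE 0.38), as in P1. Clcn2, a chloride channel whose exons overlap antisense neighbours, fell by 2.81 (SE 0.45), and Vipr1, the receptor for the secretagogue vasoactive intestinal peptide, by 2.65 (SE 0.30), while Vipr1 in P1 stood at 320 and 254.9 CPM beside 297.4 and 235.5 in P4. Prkg2, a cGMP-dependent protein kinase, fell by 1.88 (SE 0.36). Slc26a4, an anion exchanger of the family of Slc26a3 and Slc26a6, was called higher (adjusted p = 0.00758) on 16 and 74 counts in labelled P2, 2 and 2 in P4, and 0 to 7 in the other libraries. Scnn1a, a subunit of the epithelial sodium channel, rose by 2.33 (SE 0.46, adjusted p = 0.00581), from 24.6 and 16.8 to 98.2 and 109.5 CPM. Guca2a, the guanylin peptide that stimulates chloride secretion, rose by 2.31 (SE 0.43), from 290.4 and 173.3 CPM to 1199.8 and 1103.4.

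Between labelled P3 and P4, labelled P3 and P5, and P5 and P4, none of the 34 was called. P1 against labelled P2 called 17 of the 34 (7 higher and 10 lower, beside 29.1% of all genes). Among them Car13 rose by 4.12 (SE 0.70), Fxyd3, which shares 2059 exon bases with the antisense gene Lgi4, fell by 3.39 (SE 0.69), and Slc4a8 fell by 3.86 (SE 0.76). P1 against labelled P3 called 8 (1 and 7, beside 15.6%) and P1 against P5 9 (1 and 8, beside 19.8%). Labelled P2 against labelled P3 called 12 (5 and 7, beside 21.0%), and labelled P2 against P5 12 (4 and 8, beside 15.9%).

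**Figure D4:**
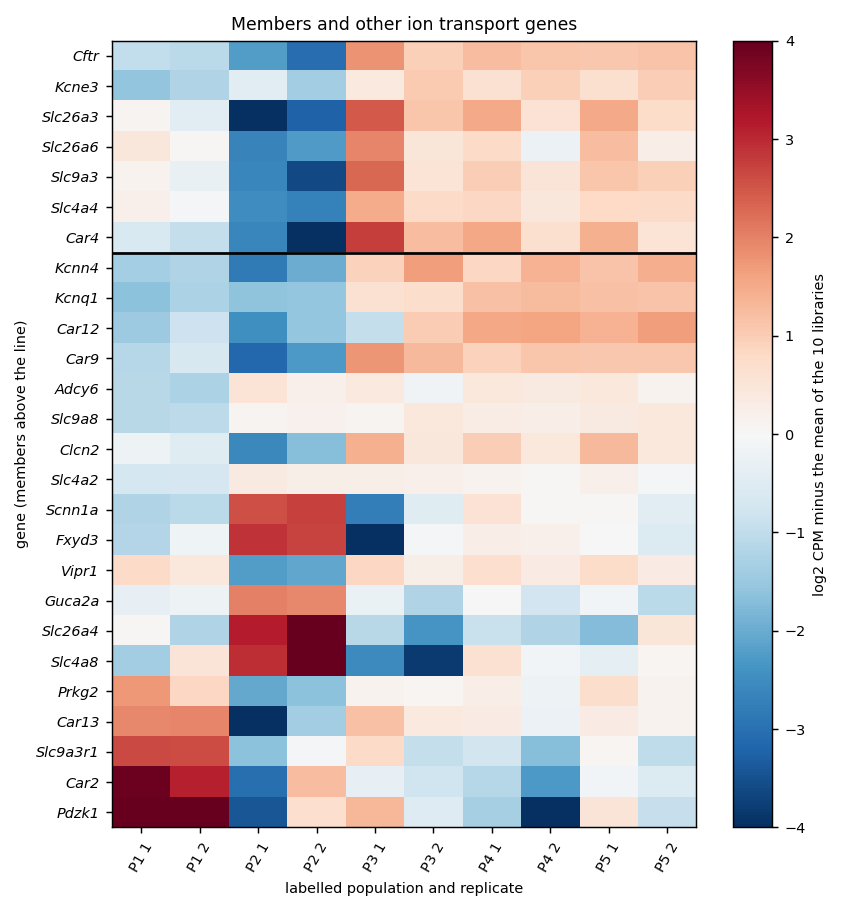
Log2 CPM minus the mean of the 10 libraries for the 7 members, above the black line, and 19 other ion transport genes that differed among the populations, below it, with colours saturated at -4 and 4. Kcnq1 and Kcnn4 are low in P1 and labelled P2 like Cftr, Car2, Pdzk1 and Slc9a3r1 are high in P1, and Scnn1a and Guca2a are high in labelled P2.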

How the data were processed

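RNA-seq libraries (poly-A TruSeq v2, NextSeq 500) of 5 sorted crypt populations were analysed. The authors aligned reads with TopHat 2.1.0 to mm9 and counted exon reads per gene with HTSeq 0.11.2, without strand, and the deposited values are raw counts per gene. Names of rRNA genes (206) were removed here, as the authors did, and so were rows without a gene name (at most 0.0006% of counts). Genes were filtered with filterByExpr, scaled by TMM, and fitted with edgeR 4.0.16 (R 4.3.3), quasi-likelihood, with 5 population means over all 10 libraries, which share 1 estimate of the spread. Contrasts were tested two-sided, and a call needed an adjusted p (Benjamini-Hochberg) below 0.01. Standard errors are the fold change divided by the root of F. The p-values rest on the spread between the 2 replicates within each population, pooled over the 5 populations. The quasi-likelihood fit also moderates each gene's spread with that of the other genes. For the members this gave 9.2 degrees of freedom in total, of which 5 came from the replicates. DESeq2 1.42.0, other scalings, filters and left-out libraries were alternatives. Log2 CPM used a count offset of 2.

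Counts of all 10 libraries were simulated from each gene's mean level over these libraries, with 200 genes changed 4-fold in P4 only. In P1 against P4, edgeR recovered 142 of the changed genes and called 4 unchanged genes (13377 tested). DESeq2 recovered 138 and called 6 (13623 tested). Gene positions and lengths came from GENCODE M1 on NCBIM37, in which 33643 of 35006 names were found. Upstream windows came from RefSeq (GRCm38.p6). The members and gene lists were chosen with earlier results of these data known. Named were all 7 members, the 19 of 44 listed ion transport genes that differed among populations, the 3 genes most correlated with each member, and marker genes. P2 and P3 stand for the labelled populations here and in the closing section.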

Additional observations from a re-analysis of the deposited data

How the results depend on the processing

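The members called in each comparison kept their number within 1.5-fold under every setting beside left-out libraries, except in the P1 comparisons. For P1 against labelled P3 (3 in the report, 15.6% of all genes called) the number was 6 with DESeq2 (23.7%) and 7 without the count filter (18.2%). It was 6 with the replicate number as a block (18.9%), 6 at an adjusted p below 0.05 (33.9%) and 0 when only the 2 populations were fitted (0.0%). For P1 against P4 (23.4% in the main fit) it was 5 with library totals (15.5%) and 4 without the filter (22.8%). For P1 against P5 (19.8% in the main fit) it was 5 (9.73%) and 5 (21.0%). With libraries left out in turn the numbers ran over 5 to 7 for any difference, 1 to 6 for P1 against P2, 0 to 5 against P3, 0 to 3 against P4, 0 to 2 against P5, 5 to 7 for P2 against P3, 3 to 7 for P2 against P4 and P5, and 0 to 0 among the last 3 populations. Causes were not tested.

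Reversed differences, none of them called, were as follows. Library totals gave, for P3 against P4, Cftr -0.95, Slc9a3 -0.42, Slc26a3 -0.47, Slc26a6 -0.23, Slc4a4 -0.67 and Car4 -0.28, and for P3 against P5 Cftr -0.78, Slc9a3 -0.58, Slc26a3 -0.42, Slc26a6 -0.60, Slc4a4 -0.69 and Car4 -0.042. For P5 against P4 they gave Slc26a3 -0.047 and Kcne3 -0.063, and leaving out mitochondrial genes gave Kcne3 -0.00174. With library totals the median of all genes stood at -0.98 and -0.92 in the P3 comparisons (a move of -1.06 and -0.95), and relative to it Car4 stood at 0.69 and 0.88. With libraries left out, ranges crossed 0 for P3 against P4 in Cftr -0.26 to 0.62, Slc9a3 -0.23 to 1.54, Slc26a3 -0.0467 to 1.32, Kcne3 -0.40 to 0.25. For P3 against P5 they did in Cftr -0.19 to 0.69, Slc9a3 -0.49 to 1.28, Slc26a3 -0.11 to 1.25, Slc26a6 -0.36 to 1.12, Slc4a4 -0.0342 to 0.69, Kcne3 -0.44 to 0.22. For P5 against P4 they did in Cftr -0.12 to 0.00602, Slc26a3 -0.36 to 0.61, Slc26a6 -0.0740 to 1.07, Slc4a4 -0.0417 to 0.32, Kcne3 -0.14 to 0.23, Car4 -0.61 to 0.42. In P1 against P4, Slc26a6 ran over -0.51 to 0.48.

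Nothing says that equal replicate numbers share an animal. Deviations of same-numbered libraries correlated at -0.06 to 0.55 (median 0.25). With the replicate block 6, 6, 3 and 3 members were called for P1 against P2, P3, P4 and P5. Of all genes, 33.0%, 18.9%, 28.3% and 24.4% were then called. The other P2 comparisons each called 7 members, beside 23.6% of all genes against P3, 17.4% against P4 and 19.0% against P5. The rest called 0 members, beside at most 0.0292% of all genes. The lowest counts, 8 and 9 in the libraries labelled P2, limit the precision of Slc9a3 and Slc26a3 there. With both libraries labelled P3 left out, a setting chosen after seeing the data, 6, 3 and 2 members were called for P1 against P2, P4 and P5. Of all genes, 37.8%, 32.7% and 29.2% were called in these comparisons.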
